A study of Mus musculus with 8 samples.

Results

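Primary microglia, the resident macrophages of the brain, were taken from C57BL/6 mice and exposed for 3 h either to PBS or to Ecrg4(71-132). Ecrg4 is a secreted precursor protein, and Ecrg4(71-132) is its stretch from residue 71 to residue 132, made as a recombinant fusion to the Fc part of an antibody and given at 20 µg/ml. The PBS cells received neither Ecrg4 nor Fc, so the comparison holds the fragment and its Fc carrier together. Agilent arrays with a single dye measured total RNA, 2 arrays per treatment, and these 4 arrays of the 8 in the series were chosen by the treatment in their labels. The other 4 arrays, 2 with Fc alone and 2 with Fc-fused Ecrg4(133-148), both also at 20 µg/ml for 3 h, entered the fit that estimates the spread between arrays. The labels number the arrays of a treatment 1 and 2 and call these numbers sets, and each array was compared with the array of its own set. No source used here says that the sets are separate cultures or animals, so p-values measure only the spread between these samples, which may be technical.

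Microglia carry receptors for microbial products and for signals of tissue damage. Their engagement releases NF-kB, a family of transcription factors held in the cytoplasm by inhibitor proteins, which then switches on genes for cytokines, for chemokines that attract other immune cells, and for its own inhibitors. Interferon released by the same cells acts back on them through a separate set of genes, and long exposure is known to lower the genes of the resting microglial state.

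Levels are log2 signals with the 75th percentile of each array at 0, and a difference of 1 is a 2-fold difference. After a filter on dim probes 19120 genes were kept, 12597 of them with a gene symbol. Probes well above background numbered 24214 to 29439 per array, and precision is limited by how few arrays there are. All 14 microglia and macrophage markers examined were measured, 13 of them well above background on all 4 arrays compared. Their summed signal, in units of the 75th percentile, ran from 1298 to 1608 over the 8 arrays, and the brightest markers weigh most in it. Of the markers of other cells, 1 of 10 for neurons, 2 of 8 for endothelium, 3 of 10 for lymphocytes and neutrophils, 5 of 10 for fibroblasts and pericytes, 8 of 10 for oligodendrocytes and 8 of 10 for astrocytes were measured. The summed signal of the astrocyte markers was 43.5 with PBS and 33.8 with Ecrg4(71-132) in set 1 and 76.1 and 72.5 in set 2, and its part in the results was not tested. In RNA from whole cultures, fewer cells of a type and less RNA per cell cannot be told apart.

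The sets started from different levels. Cx3cr1, the fractalkine receptor of microglia and a member of the microglia and macrophage markers above, stood at 4.58 with PBS in set 1 and at -3.25 in set 2. Ecrg4 itself stood at 1.95 with PBS in set 1 and was well above background on all 4 arrays of that set, but on 0 arrays of set 2, and so was not among the genes kept. Of the 20 genes described first below, 17 had a higher PBS level in set 1 than in set 2. Differences are therefore given within each set, set 1 first, and where a pair of levels is given for a set, PBS comes first.

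No gene passed the test over all genes (limma with the set as a block, Benjamini-Hochberg threshold 0.05, 0 of 19120, or 0%). The smallest adjusted p was 0.104, shared by 81 genes. At an unadjusted p under 0.05 there were 4531 genes, 2305 of them higher with Ecrg4(71-132) (12.1%) and 2226 lower (11.6%). The count that passed rose when the Ecrg4(71-132) array or the PBS array of set 1 was left out. The treatment concerned then had 1 array, so no count is given. Its difference still drew on arrays of both sets, through the difference between sets in the other treatments. The median difference of all genes was -0.007 without the Ecrg4(71-132) array of set 1 and -0.013 without the PBS array of set 1. The share of higher genes among those with an unadjusted p under 0.05 was 50.9%, and it was 86.7% when each array was scaled to its median, a change that raised the median difference of all genes from 0.01 to 0.16. With quantile normalization it was 41.3%, and the median difference was -0.037.

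Over 2-fold differences within both sets were found for 138 genes higher with Ecrg4(71-132), or 0.722% of the genes kept, and for 85 lower, or 0.445%. Another 15 genes were over 2-fold higher in one set and over 2-fold lower in the other. Both directions were more often large in set 2: 889 genes were over 2-fold higher there and 241 in set 1, and 829 and 232 were over 2-fold lower. Among the 138 higher genes the median difference was 1.42 in set 1 and 3.11 in set 2, and 116 had the larger difference in set 2. Among the 85 lower genes the medians were -1.25 and -1.66. The higher and lower genes also differed in how well they were measured: 107 of the 138 were well above background on all 4 arrays, against 31 of the 85, and 33 of the 85 were above background on no Ecrg4(71-132) array. With the normexp background correction in place of the scanner's own, 11 genes were over 2-fold lower in both sets.

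**Figure D1:**
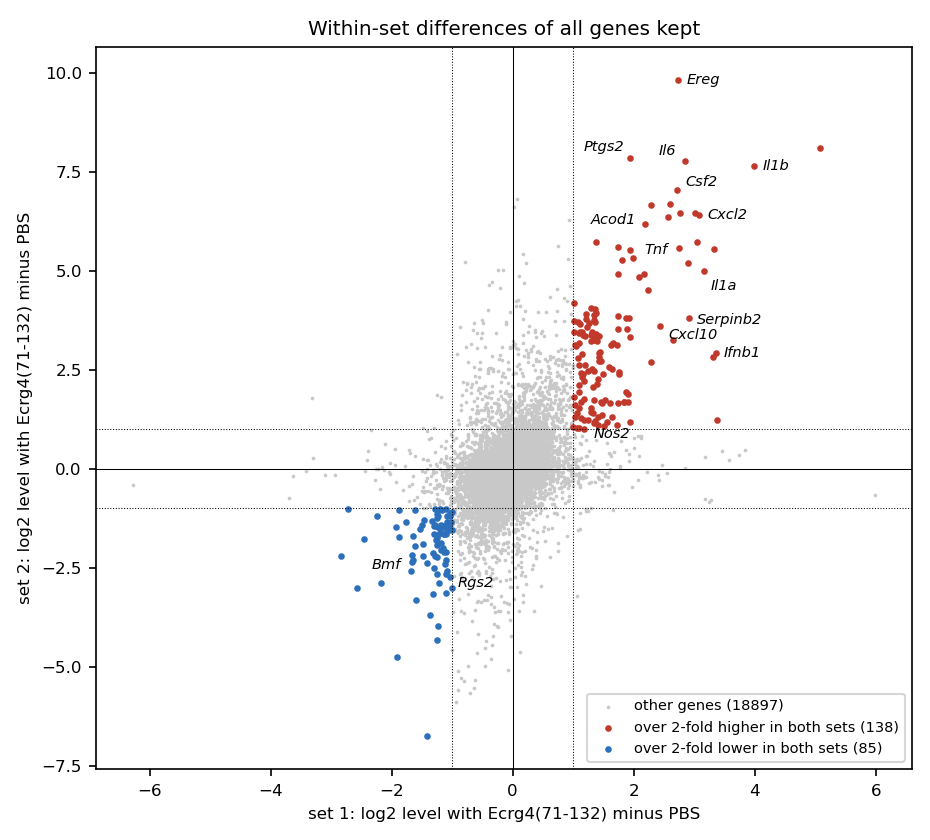
Each point is a gene: the horizontal axis gives the log2 level with Ecrg4(71-132) minus PBS in set 1 and the vertical axis the same in set 2, with dotted lines at 2-fold. The 138 genes over 2-fold higher in both sets (red) reach further along the vertical axis than along the horizontal one, and the 85 lower genes (blue) lie closer to the dotted lines.

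The cytokine genes Il1b, Tnf and Il1a, the markers set for this comparison, were all higher with Ecrg4(71-132). Il1b, which encodes interleukin-1 beta, stood at 1.68 with PBS and 5.67 with Ecrg4(71-132) in set 1, compared with 0.93 and 8.57 in set 2. Both Ecrg4(71-132) arrays lay above both PBS arrays, as they did for 14.2% of all genes. The difference was 3.99 (15.9-fold) in set 1 and 7.64 (199.9-fold) in set 2, with a mean of 5.82 (SE 1.13, n = 2 per group, limma, adjusted p = 0.132). Tnf, the gene of tumour necrosis factor, went from 3.32 to 6.07 in set 1 and from 1.74 to 7.33 in set 2. That is a difference of 2.76 (6.75-fold) and of 5.59 (48.1-fold), with a mean of 4.17 (SE 0.82, adjusted p = 0.133). Il1a, which encodes interleukin-1 alpha, a cytokine also released from damaged cells, stood at 0.01 and 3.18 in set 1, compared with 0.44 and 5.43 in set 2. It differed by 3.16 (8.96-fold) and 4.99 (31.8-fold), with a mean of 4.08 (SE 0.62, adjusted p = 0.127). For Tnf and Il1a, too, the groups did not overlap. The 95% interval of the mean difference was 2.83 to 8.80 for Il1b, 2.01 to 6.34 for Tnf and 2.45 to 5.70 for Il1a. With Fc alone the levels in sets 1 and 2 were 2.66 and 2.62 for Il1b, 4.32 and 3.19 for Tnf, and 0.73 and 1.19 for Il1a, so that Ecrg4(71-132) stood above Fc by 3.01 and 5.95, by 1.75 and 4.14, and by 2.45 and 4.25.

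The genes named next are the 20 with the largest smaller one of their within-set differences, among genes with a symbol that were well above background on all 4 arrays. They are Il1b, Il1a, Cxcl2, Tnfsf15, Serpinb2, Il6, Tnf, Cxcl3, Cxcl10, Col5a3, Ch25h, Flrt3, Acod1, Adora2a, Nfkbiz, Traf1, Ptgs2, Nlrp3, Ifit1 and Gbp5. The last of them differed by at least 1.89 within each set and the first gene outside by 1.81. Since their differences chose them, these values describe the genes and test nothing. The groups did not overlap for 18 of the 20, the exceptions being Cxcl10 and Ifit1. The difference was larger in set 2 for 19, the exception being Ifit1.

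Sequence before the start site was examined for these genes because many of them are known to answer to NF-kB or interferon. Of the 20, 18 had a promoter in the RefSeq table for GRCm38.p6, and the 250 bases before the first listed start were searched on both strands. The kappa B letters, GGGA followed by any 2 bases and TTCC, form the core bound by NF-kB and lay before 5 of the 18 (27.8%), against 1.23% of the kept genes with a promoter and 1.17% of all 27025 promoters, and further shares are given in the same order. The letters of the interferon-stimulated response element, GAAA at both ends with any 2 bases between, lay before 3 of 18 (16.7%), against 2.75% and 3.04%. The AP-1 letters TGANTCA lay before 4 of 18 (22.2%), against 4.54% and 6.87%, and the TATA letters TATAAA before 7 (38.9%), against 7.25% and 12.97%. The cyclic AMP response letters TGACGTCA lay before 1 (5.56%), against 2.77% and 1.62%. Of the 97 genes with a symbol among the 138 higher ones, 74 had a promoter, and the same letters lay before 6 (8.11%), 11 (14.9%), 15 (20.3%), 20 (27.0%) and 2 (2.70%) of them. A match describes letters in this window, not binding. The 6 promoters of the named genes that held kappa B or interferon-response letters are shown 5′ to 3′ on the strand of the gene, with those letters in capitals and the last base next to the start site. Capitals in Cxcl2, Il6, Cxcl3 and the second run of Cxcl10 and of Gbp5 mark kappa B letters, read on either strand, and the other runs mark interferon-response letters. In Cxcl2 and Cxcl3 the run matches on both strands, 1 base apart.
Cxcl2 (chr5:90903649-90903898, plus strand): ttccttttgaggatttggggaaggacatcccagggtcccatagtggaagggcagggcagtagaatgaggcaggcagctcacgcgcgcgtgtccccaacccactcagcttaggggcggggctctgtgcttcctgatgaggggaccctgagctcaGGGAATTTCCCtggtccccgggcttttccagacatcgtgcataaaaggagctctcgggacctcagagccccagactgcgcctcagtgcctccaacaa
Il6 (chr5:30012864-30013113, plus strand): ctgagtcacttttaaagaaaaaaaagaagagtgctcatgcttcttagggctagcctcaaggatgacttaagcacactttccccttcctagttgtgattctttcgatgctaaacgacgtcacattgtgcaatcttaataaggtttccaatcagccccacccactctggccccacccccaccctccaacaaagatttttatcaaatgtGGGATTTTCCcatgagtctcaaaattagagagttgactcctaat
Cxcl3 (chr5:90785851-90786100, plus strand): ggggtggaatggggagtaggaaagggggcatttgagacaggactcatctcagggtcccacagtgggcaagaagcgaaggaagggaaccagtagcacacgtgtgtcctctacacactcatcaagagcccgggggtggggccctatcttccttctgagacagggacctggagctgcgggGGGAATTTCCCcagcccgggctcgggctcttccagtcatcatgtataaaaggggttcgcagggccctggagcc
Cxcl10 (chr5:92348890-92349139, minus strand): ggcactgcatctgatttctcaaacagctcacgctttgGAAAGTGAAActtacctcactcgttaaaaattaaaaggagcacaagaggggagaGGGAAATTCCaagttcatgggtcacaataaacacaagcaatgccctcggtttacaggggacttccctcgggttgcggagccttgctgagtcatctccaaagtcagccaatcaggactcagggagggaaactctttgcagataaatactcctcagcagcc
Gbp5 (chr3:142496684-142496933, plus strand): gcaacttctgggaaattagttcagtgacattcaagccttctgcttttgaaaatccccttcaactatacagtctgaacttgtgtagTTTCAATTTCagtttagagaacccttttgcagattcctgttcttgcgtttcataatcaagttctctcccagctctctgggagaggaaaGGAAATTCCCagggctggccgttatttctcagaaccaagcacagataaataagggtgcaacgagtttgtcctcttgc
Ifit1 (chr19:34640639-34640888, plus strand): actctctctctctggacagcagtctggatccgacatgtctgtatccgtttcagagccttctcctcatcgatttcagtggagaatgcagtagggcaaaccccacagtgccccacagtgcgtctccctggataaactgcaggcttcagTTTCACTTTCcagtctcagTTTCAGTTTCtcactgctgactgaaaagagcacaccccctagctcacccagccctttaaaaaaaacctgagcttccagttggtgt
Cxcl2 and Cxcl3 encode chemokines that draw neutrophils, and their kappa B letters began 97 and 73 bases before the start. In Il6, the gene of an interleukin that drives the acute-phase response, they began 44 bases before it. Cxcl10 and Gbp5 held both kinds of letters without overlap, and Ifit1, an interferon-induced gene that restrains viral RNA, held interferon-response letters at 2 places.

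The lists by function used from here on were chosen with earlier results of these data known. Their counts, also beside the shares of all genes, therefore describe the lists and test nothing. Of 13 listed genes of the interleukin-1 family 12 were measured. Of these, 8 were higher in both sets (34.3% of all genes were) and 2 were lower in both (31.5% of all genes were). Over 2-fold higher in both were 6 (0.722% of all genes were). The median difference was 0.84 in set 1 and 1.37 in set 2, and over the 11 members well above background on all 4 arrays it was 0.31 and 1.05. Il1rn, which encodes the soluble antagonist of the interleukin-1 receptor, stood at -0.47 with PBS and 1.37 with Ecrg4(71-132) in set 1, compared with 2.15 and 3.84 in set 2. Its groups overlapped, as the PBS level of set 2 lay above the Ecrg4(71-132) level of set 1, while the differences were 1.84 and 1.69 (mean 1.76, SE 0.25, adjusted p = 0.123). Il1f6 and Il1f9, 2 further cytokines of the family, differed by 2.60 and 6.69 and by 1.37 and 3.40. Il1f6 was well above background on 1 of the 2 PBS arrays. Nlrp3, the sensor of the inflammasome that leads to cleavage of interleukin-1 beta, went from -1.42 to 0.50 in set 1 and from -2.58 to 1.23 in set 2. It differed by 1.92 and 3.82 (mean 2.87, SE 0.54, adjusted p = 0.132). The inflammasome adaptor Pycard (0.06 and -0.28) and the cytokine Il18 (0.18 and 0.04) differed little, and the receptor Il1r1 was lower (-0.58 and -0.11).

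Ligands of the tumour necrosis factor superfamily were higher together with several of its receptors. Of 14 listed genes 10 were measured, 7 were higher in both sets, and 4 were over 2-fold higher. The medians were 0.85 and 2.18. Tnfsf15, a ligand that costimulates T cells and acts on endothelium, stood at -1.79 with PBS and 1.23 with Ecrg4(71-132) in set 1, compared with -0.10 and 6.36 in set 2. That is a difference of 3.01 and 6.46 (mean 4.74, SE 0.94, adjusted p = 0.133). Tnfsf9, the ligand of the T-cell costimulator 4-1BB, differed by 1.19 and 3.35. Cd40, the receptor through which T cells activate antigen-presenting cells, went from 0.03 to 1.41 in set 1 and from -3.84 to 1.88 in set 2. Its difference was thus 1.38 in one set and 5.72 in the other (mean 3.55, SE 1.03, adjusted p = 0.160). With Fc alone Cd40 stood above PBS by 0.84 and 3.46, and Ecrg4(71-132) stood above Fc by 0.54 and 2.26. The general receptor Tnfrsf1a showed 0.26 and -0.20, and Tnfrsf1b, its inducible relative, 0.87 and 1.61.

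Other cytokine genes ranged from a difference near 0 to 218.7-fold in set 2. Of 18 listed genes 13 were measured, 11 were higher in both sets and 0 lower in both, and 5 were over 2-fold higher. The medians were 0.50 and 2.42, and over the 9 members well above background on all 4 arrays 0.47 and 0.78. The median of the mean differences was 1.13, and 0.70 with the normexp background correction. Il6 stood at 2.26 with PBS and 5.12 with Ecrg4(71-132) in set 1, compared with -2.11 and 5.66 in set 2. The sets differed far more with PBS than with Ecrg4(71-132), and the difference was 2.86 (7.24-fold) in set 1 and 7.77 (218.7-fold) in set 2 (mean 5.31, SE 1.31, adjusted p = 0.143). Ifnb1, which encodes interferon beta, went from -3.64 to -0.29 in set 1 and from -6.09 to -3.17 in set 2. It had the smallest p of all genes with a symbol (limma, unadjusted p = 1.72e-05, adjusted p = 0.104). Its differences were 3.35 and 2.92, the second against a PBS level not well above background (mean 3.14, SE 0.17). Csf2 and Csf3, the growth factors of granulocytes and macrophages and of granulocytes, differed by 2.72 and 7.04 and by 2.09 and 4.84. Ifnb1, Csf2 and Csf3 were each well above background on only 1 of the 2 PBS arrays. Inhba, which encodes a subunit of activin, differed by 1.38 and 3.93. Il27 (0.31 and 0.10), Tgfb1 (0.23 and 0.67) and Csf1 (0.50 and 0.78) showed smaller differences.

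Chemokine genes over 2-fold higher in both sets were found in the CXC and the CC class. Of 11 listed CXC and 14 listed CC and CX3C genes, 8 and 12 were measured, 6 and 8 were higher in both sets, and 3 of each class were over 2-fold higher. The medians were 0.63 and 4.17 for the CXC class and 1.02 and 0.55 for the CC class, and for the 5 CXC members well above background on all 4 arrays 2.43 and 3.61. The median of the mean differences was 2.45 for the CXC class, and 1.30 with the normexp background correction. Cxcl2 stood at 0.81 and 3.89 in set 1, compared with -0.75 and 5.67 in set 2. It differed by 3.07 and 6.42 (mean 4.75, SE 0.95, adjusted p = 0.133), and Cxcl3 by 2.56 and 6.37. Cxcl10, a chemokine for T cells that interferon induces, went from 5.35 to 7.79 in set 1 and from -0.48 to 3.13 in set 2. The Ecrg4(71-132) level of set 2 thus lay below the PBS level of set 1, while the differences were 2.43 and 3.61 (mean 3.02, SE 0.69, adjusted p = 0.138). Cxcl1, a neutrophil chemokine like Cxcl2, differed by 0.21 in set 1 and 5.20 in set 2 and was well above background on 1 PBS array.

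Among the CC chemokines, Ccl3 and Ccl4 attract macrophages and T cells. Ccl3 stood at 6.35 and 7.69 in set 1, compared with 6.72 and 7.88 in set 2. Its differences were 1.34 and 1.16 (mean 1.25, SE 0.09, adjusted p = 0.104), and it was among the 5 higher genes with a symbol that had the smallest p. Ccl4 differed by 1.32 and 2.08 and Ccl2, the main attractant of monocytes, by 1.22 and 0.72. Ccl5, another T-cell attractant, stood at -0.52 with PBS, 1.56 with Fc and 1.22 with Ecrg4(71-132) in set 1. Its differences from PBS were 1.74 and 4.93, and those from Fc -0.34 and 5.47. Ccl7 (2.11 and 0.84) and Ccl12 (1.91 and 0.37) differed more in set 1.

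Genes listed for feedback on NF-kB were higher almost without exception. Of 14 listed feedback genes 13 were measured, 12 were higher in both sets with an unadjusted p under 0.05, and 4 were over 2-fold higher in both. The exception was Cyld, a deubiquitinase, at -0.16 and -0.27. The medians were 0.71 and 2.44. Nfkbiz, a nuclear member of the inhibitor family needed for Il6 expression, stood at -1.24 and 0.71 in set 1, compared with -2.66 and 0.67 in set 2. It differed by 1.95 and 3.33 (mean 2.64, SE 0.51, adjusted p = 0.132). Traf1, an adaptor of tumour necrosis factor receptors, differed by 1.94 and 5.53, Nfkbid by 1.01 and 4.19, and Tnfaip3, which encodes the deubiquitinating enzyme that ends the signal, by 1.02 and 3.45. Nfkbia, the classical inhibitor, differed by 0.74 and 2.07. All 8 measured genes of NF-kB and its kinase complex were higher in both sets, with medians of 0.33 and 0.75. They ranged in set 2 from 0.05 for Ikbkb, a kinase subunit, to 2.73 for Nfkb2, a DNA-binding subunit.

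Suppressors of cytokine signalling, decay factors and phosphatases were mixed. Of 9 measured suppressor genes 5 were higher and 3 lower in both sets, with medians of 0.30 and 0.25. Socs3, which limits signalling by interleukin-6, stood at 4.14 and 5.57 in set 1, compared with 3.71 and 6.64 in set 2. It differed by 1.43 and 2.93 (mean 2.18, SE 0.49, adjusted p = 0.136), and Socs1, its counterpart for interferon, by 1.34 and 1.73. Zc3h12a, which encodes a ribonuclease that degrades cytokine messages, differed by 1.20 and 2.63, while 8 of 10 measured genes of messenger decay were higher in both sets with medians of 0.14 and 0.49. Of the 10 measured MAP kinase phosphatases 6 were higher in both sets, and Dusp2 (1.01 and 1.83) was over 2-fold higher. Among 17 measured AP-1 and immediate-early genes 11 were higher in both sets and 1, Fos (-0.36 and -0.76), was lower in both. Ier3, a stress-induced survival gene, was the 1 over 2-fold higher in both sets (1.14 and 2.32).

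Enzymes that make inflammatory mediators gave some of the widest ranges. Ptgs2, the inducible cyclooxygenase, stood at 1.12 and 3.05 in set 1, compared with -3.91 and 3.95 in set 2. Here too PBS was much lower in set 2, and the differences were 1.93 (3.81-fold) and 7.86 (232.5-fold), with a mean of 4.90 (SE 1.66, adjusted p = 0.187). Hpgd, which breaks prostaglandins down, was lower in both sets, by -1.88 and -1.72 (mean -1.80, SE 0.34, adjusted p = 0.132), and was well above background on 1 Ecrg4(71-132) array. Over all 14 genes of prostaglandin and leukotriene metabolism 6 were higher and 4 lower in both sets, with medians of 0.10 and -0.03. Acod1, which makes itaconate, a metabolite that restrains inflammation, went from 4.96 to 7.14 in set 1 and from 0.13 to 6.31 in set 2 (2.18 and 6.18, mean 4.18, SE 1.21, adjusted p = 0.158). Nos2, the inducible nitric oxide synthase, stood at -1.50 and -0.09 in set 1, compared with -1.93 and -0.63 in set 2. Its differences, 1.41 and 1.30, were alike in the sets (mean 1.36, SE 0.11, adjusted p = 0.104). Slc7a2, a transporter of arginine, the substrate of Nos2, differed by 1.18 and 1.76, and Arg1, which competes for arginine, by 0.13 and 0.01. Ch25h, which makes 25-hydroxycholesterol, stood at 4.63 and 6.91 in set 1, compared with 3.92 and 6.60 in set 2. It differed by 2.28 and 2.69 (mean 2.48, SE 0.19, adjusted p = 0.104), while 18 other measured genes of cholesterol and lipid metabolism were not over 2-fold higher or lower in both sets.

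Interferon response genes were higher in set 1 and divided in set 2. Of 27 listed genes 24 were measured, 14 were higher in both sets, 10 were higher in one and lower in the other, and 0 were lower in both. The median was 1.27 in set 1 and 0.14 in set 2. With Fc the same list had medians of 0.76 and -0.43 above PBS, from the same PBS arrays. Ifit1 stood at 1.90 and 3.81 in set 1, compared with -1.50 and 0.39 in set 2. Its differences, 1.91 and 1.89, were the most alike of the 20 leading genes (mean 1.90, SE 0.49, adjusted p = 0.147), although the groups overlapped. Gbp5, a guanylate-binding protein gene that supports inflammasome activity, differed by 1.89 and 3.53. Rsad2 (1.74 and 1.67), Oasl1 (1.56 and 1.19), Cmpk2 (1.65 and 1.31) and Gbp2 (1.29 and 1.43), which act against viruses or mark interferon action, were over 2-fold higher in both sets. Their differences from Fc, in the same order, were 0.52, 0.31, 0.57 and 0.54 in set 1 and 2.18, 1.79, 1.69 and 1.54 in set 2. Oas3, an antiviral enzyme gene, differed by 1.66 in set 1 and -1.05 in set 2. Irf7, which sustains interferon production, differed by 1.53 and -0.17. The Gbp and Oas genes are families of near-identical copies that may share probe signal. Of the interferon regulatory and STAT factors, Irf4 (1.43 and 2.82) was over 2-fold higher, and Irf1 differed by 0.90 and 0.88.

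Of 8 measured genes of plasminogen activation and serpins 6 were higher in both sets, with medians of 0.24 and 1.19, and 1 was over 2-fold higher in both. Serpinb2, an inhibitor of plasminogen activators, stood at 1.25 and 4.16 in set 1, compared with 1.21 and 5.03 in set 2. It differed by 2.91 and 3.82 (mean 3.36, SE 0.35, adjusted p = 0.104). Ereg, a ligand of the epidermal growth factor receptor, was at -1.58 and 1.15 in set 1, compared with -6.37 and 3.46 in set 2. Its difference of 9.82 in set 2, against 2.74 in set 1, was measured against a PBS level not well above background. Of the 4 measured ligands of that receptor 3 were higher in both sets, with medians of 0.85 and 4.14, but 1 was well above background on all 4 arrays. Adora2a, an adenosine receptor that dampens inflammation, differed by 1.99 and 5.33, and 3 of the 11 measured genes for purine signalling were higher in both sets and 3 lower. Col5a3, a collagen gene, differed by 2.28 and 6.67, and Flrt3, an adhesion protein gene of neurons and other cells, by 2.24 and 4.52. Slc7a11, the cystine importer that supplies glutathione, differed by 1.49 and 2.41 in a list of 15 antioxidant genes with medians of 0.39 and 0.16. Mmp13, a collagenase, differed by 1.07 and 1.03. Cfb, complement factor B, stood out among 12 complement genes at 1.24 and 1.23.

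**Figure D2:**
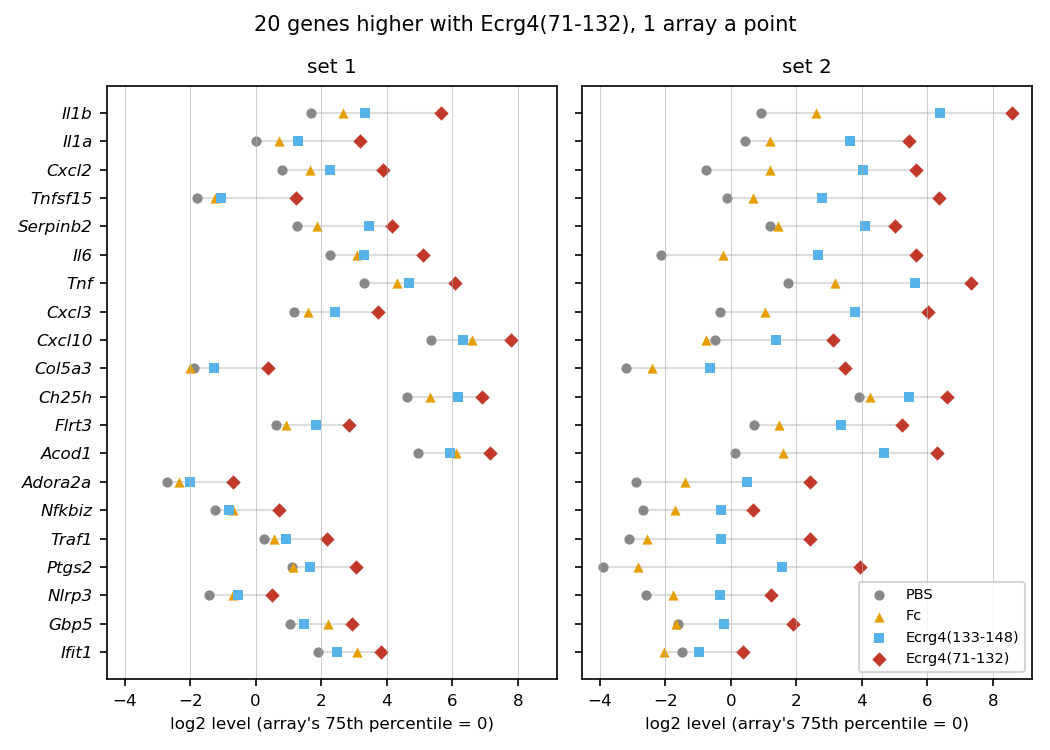
Log2 levels of the 20 leading higher genes on each array, set 1 left and set 2 right, with 1 array per point and no error bar because a set holds 1 array per treatment. PBS (grey circles) lies further left in set 2 than in set 1 for most genes, as for Il6, at -2.11 and 2.26, and Ecrg4(71-132) (red diamonds) lies at the right.

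Because PBS carried no Fc, the Fc levels stand beside those of Ecrg4(71-132), and the comparisons with PBS use the same PBS arrays. Of the 20 leading higher genes, 16 were higher with Fc than with PBS in both sets. All 20 were higher with Ecrg4(71-132) than with Fc in both sets. The 20 were chosen by their difference between these Ecrg4(71-132) and PBS arrays, so the counts test nothing, and the shares of all genes were not counted. Il6 stood at 3.09 with Fc in set 1 and -0.25 in set 2, and the difference of Ecrg4(71-132) from Fc was 2.03 and 5.91. Cxcl2 stood at 1.66 and 1.21 with Fc and differed from it by 2.23 and 4.45, and Ch25h at 5.32 and 4.26 with differences of 1.59 and 2.34. Cxcl10 differed from Fc by 1.19 and 3.88, after 1.25 and -0.27 between Fc and PBS. Ifit1 stood at 3.09 with Fc in set 1, between PBS and Ecrg4(71-132), and at -2.05 in set 2, below PBS.

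Receptors that start these pathways were divided. Tlr4, the receptor for bacterial lipopolysaccharide, stood at 2.05 and 2.08 in set 1, compared with 3.06 and 3.08 in set 2. Its difference was 0.03 in both sets (mean 0.03, SE 0.06, 95% interval -0.13 to 0.19). Its co-receptor Cd14 differed by 0.86 and 2.99, and its partner Ly96 by 0.14 and 0.01. Tlr2, for bacterial lipoproteins, differed by 0.41 and 2.30, Nod2, for peptidoglycan fragments, by 1.42 and 2.73, and Clec4e, a lectin receptor, by 1.08 and 3.71. Of 15 measured pattern recognition genes 8 were higher and 3 lower in both sets, with medians of 0.16 and 0.03. Since the fragment carries Fc and PBS does not, the Fc gamma receptors are given too. Fcgr1, with high affinity for antibody, differed by 0.53 and -1.82, Fcgr2b, the inhibitory receptor, by 0.22 and 0.29, Fcgr3 by -0.01 and -0.33, and Fcgr4 by 0.14 and -0.45. The 13 genes of Fc receptors and their signalling had medians of 0.18 and -0.11.

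The 20 leading lower genes, chosen by the same rule, were Armc2, Bmf, Frat1, Cbfa2t3, Rnf144b, Nat8l, Lmod3, Gpr34, Fam214a, Trp53inp1, Slc46a3, Rasgrp3, Mbd5, Epor, G0s2, Rgs2, Treml1, Lpin1, Grb7 and Fbxo32. The last of them differed by -1.02 in its smaller set, and the first gene outside, Cebpa, by -1.01. Their differences were smaller than those of the higher genes and more alike between the sets, and 18 of the 20 were larger in set 2. For 15 of them both Ecrg4(71-132) arrays lay below both PBS arrays, as they did for 10.5% of all genes. None of the 13 with a promoter in the RefSeq table held the kappa B, interferon-response or AP-1 letters in 250 bases, and 1 (7.69%) held TATAAA. With the shares of the kept genes given above, few matches would be looked for among 13 promoters, so nothing is read from these counts.

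Genes of cell survival and p53 targets were among them. Bmf, which encodes a pro-apoptotic relative of BCL-2, stood at -0.12 with PBS and -1.77 with Ecrg4(71-132) in set 1, compared with 0.70 and -1.61 in set 2. It differed by -1.65 and -2.31 (mean -1.98, SE 0.20, adjusted p = 0.104). Bbc3, another pro-apoptotic member, differed by -0.54 and -0.56, while Bcl2l11, also pro-apoptotic, differed by 0.94 and 2.06. Of 13 measured BCL-2 family genes 3 were higher and 3 lower in both sets. Trp53inp1, which is induced by p53 and promotes cell death, stood at 0.76 and -0.39 in set 1, compared with 1.92 and -0.08 in set 2 (-1.15 in set 1, mean -1.58, SE 0.22, adjusted p = 0.123). Rnf144b, a ubiquitin ligase gene, differed by -1.25 and -2.23.

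Signalling and receptor genes made up another share. Gpr34, a lysophosphatidylserine receptor typical of resting microglia, stood at 1.34 and 0.13 in set 1, compared with 1.003 and -0.53 in set 2. It differed by -1.20 and -1.53 (mean -1.37, SE 0.17, adjusted p = 0.110). Rgs2, which ends signalling by G proteins, stood at 5.01 and 3.93 in set 1, compared with 5.29 and 2.71 in set 2, a difference of -1.08 and -2.58 (mean -1.83, SE 0.40, adjusted p = 0.136). Rgs1, its relative, differed by -0.68 and -1.13, and 6 of 9 measured genes of the family were lower in both sets with medians of -0.17 and -0.42. Rasgrp3, an activator of Ras, was at 2.37 and 1.25 in set 1, compared with -0.23 and -2.64 in set 2. Its groups overlapped, and the differences were -1.12 and -2.41. Epor, the erythropoietin receptor, differed by -1.10 and -2.10, Treml1, a receptor of the TREM family, by -1.08 and -1.35, and Frat1, which stabilises beta-catenin, by -1.34 and -1.31 (mean -1.32, SE 0.09, adjusted p = 0.104).

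Some of the 20 act in metabolism. Lpin1, which makes diacylglycerol and coactivates transcription, stood at -0.39 and -1.45 in set 1, compared with 1.85 and 0.45 in set 2. It differed by -1.06 and -1.40 (mean -1.23, SE 0.14, adjusted p = 0.104), with overlapping groups. G0s2, an inhibitor of triglyceride breakdown, differed by -1.09 and -1.46 and Nat8l, which makes N-acetylaspartate, by -1.24 and -1.92. Slc46a3, a lysosomal transporter, differed by -1.14 and -1.48, and Fbxo32, a ubiquitin ligase gene of protein breakdown, by -1.19 and -1.02. The smallest p among lower genes with a symbol belonged to Frat1, Armc2, Cbfa2t3, Wdcp and Fam189a2. Armc2, an armadillo-repeat gene, differed by -1.66 and -2.18 (mean -1.92, SE 0.15, adjusted p = 0.104). The remaining genes of the 20 were Lmod3, an actin-filament gene of muscle (-1.23 and -1.46), Fam214a (-1.18 and -2.04), Mbd5, a methyl-binding domain gene (-1.10 and -2.30), and Grb7, a growth factor receptor adaptor (-1.04 and -1.54).

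**Figure D3:**
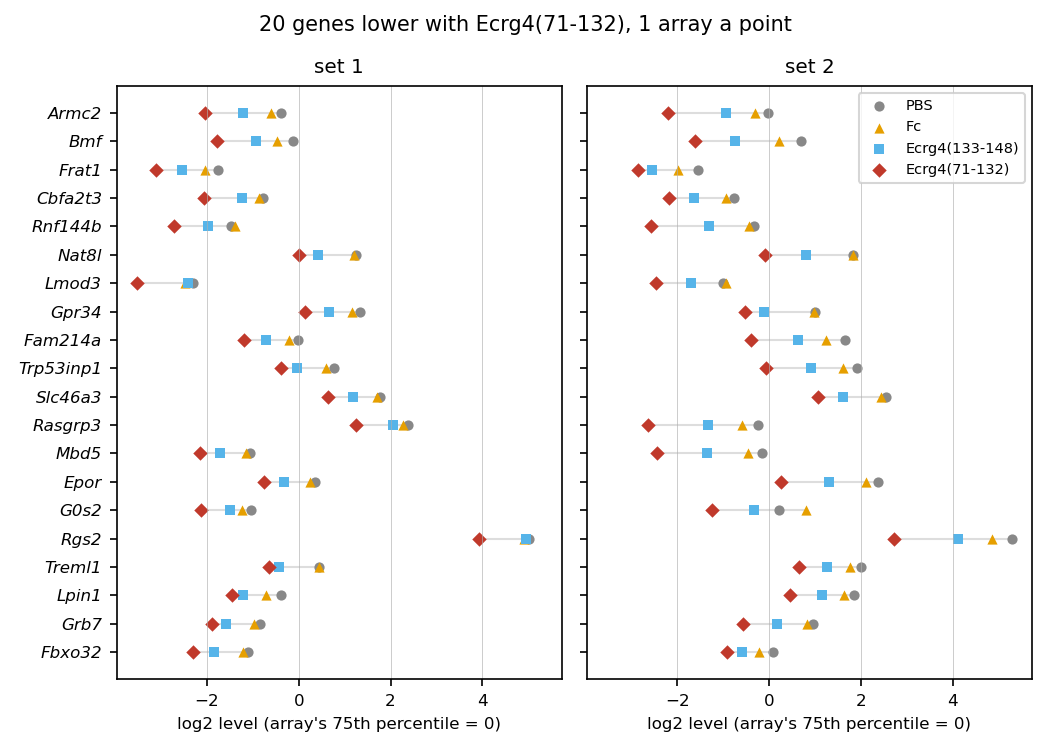
Log2 levels of the 20 leading lower genes on each array, set 1 left and set 2 right, with 1 array per point. Ecrg4(71-132) (red diamonds) lies left of PBS (grey circles) in each row, as for Rgs2, at 3.93 against 5.01 in set 1 and 2.71 against 5.29 in set 2.

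Transcription factors of the macrophage lineage were divided. Cebpa, a lineage factor of myeloid cells, stood at 2.14 and 1.13 in set 1, compared with 3.23 and 2.14 in set 2, a difference of -1.01 and -1.09 (mean -1.05, SE 0.11, adjusted p = 0.104). Cebpb, its relative that is induced in inflammation, differed by 0.29 and 0.56. Of 15 measured lineage factors 8 were higher and 4 lower in both sets. Cbfa2t3, a corepressor of blood cell transcription factors, stood at -0.79 and -2.07 in set 1, compared with -0.77 and -2.18 in set 2 (-1.28 and -1.41, mean -1.34, SE 0.11, adjusted p = 0.104). Klf4, a Kruppel-like factor, differed by -0.59 and -2.28, and 3 of 10 measured members of its family were higher and 3 lower in both sets. Tgfbr2, the receptor for TGF-beta, differed by -0.42 and -0.94, and 6 of 14 measured genes of that pathway were lower and 3 higher in both sets.

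Most genes of the resting microglial state other than Gpr34 differed little at 3 h. Of 15 measured homeostatic genes 7 were lower and 3 higher in both sets, with medians of -0.03 and -0.18. The median of the mean differences was -0.07, and 0.077 when each array was scaled to its median. P2ry12, the adenosine diphosphate receptor of resting microglia, differed by -0.15 and -0.83, Csf1r, the receptor that keeps microglia alive, by 0.04 and -0.18 (95% interval of the mean -0.30 to 0.16), and Cx3cr1 by 0.12 and 2.51. Of 20 measured cell cycle genes 11 were lower and 3 higher in both sets, with medians of -0.06 and -0.21, and the median of their mean differences was -0.13, or 0.01 with median scaling. The 16 measured lysosomal genes had medians of 0.12 and -0.05 and the 17 of glycolysis and hypoxia 0.19 and 0.08.

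**Figure D4:**
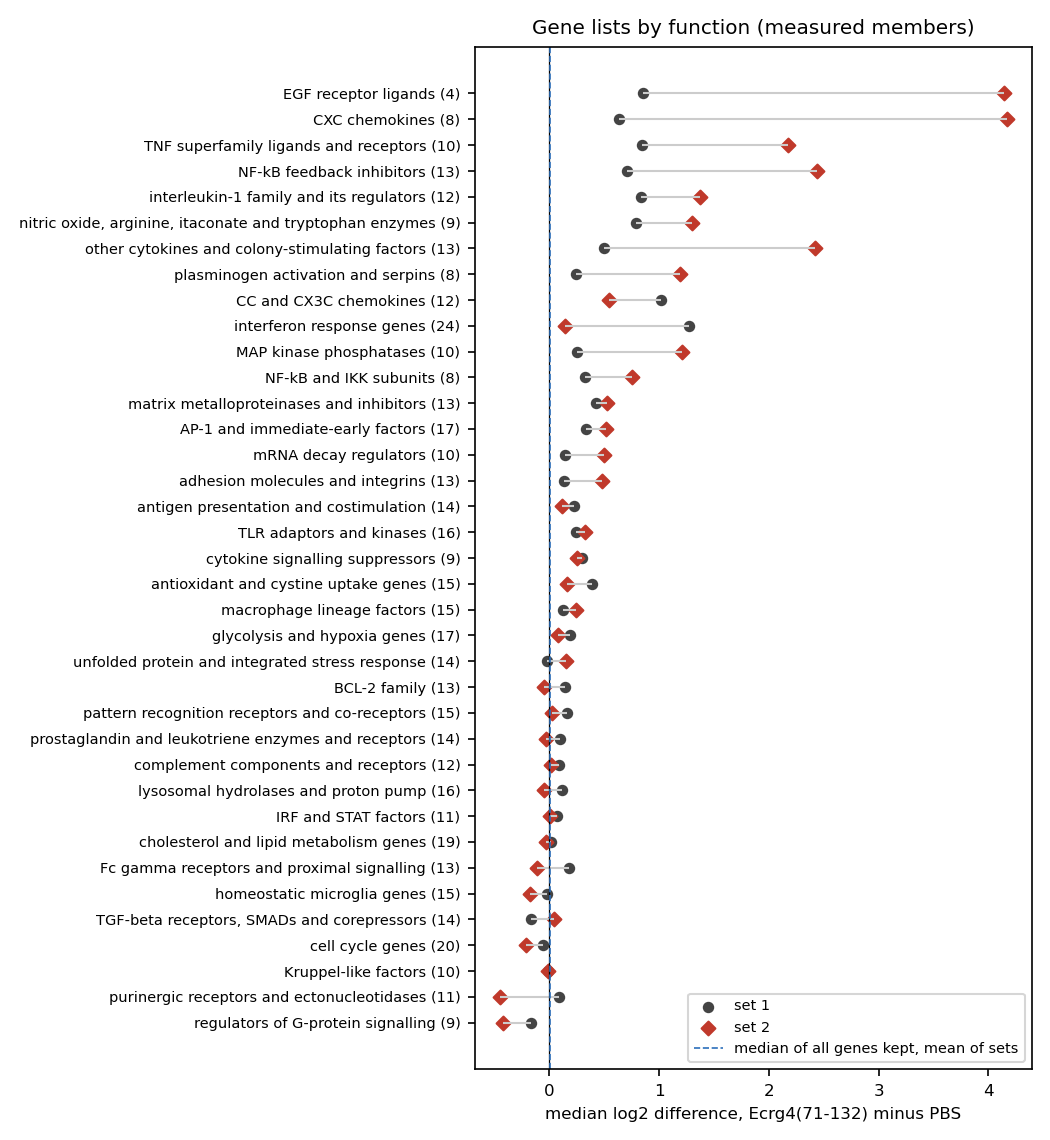
Median log2 difference of the measured members of the 37 lists by function, Ecrg4(71-132) minus PBS, in set 1 (dark circles) and set 2 (red diamonds), with the number of measured members in brackets and the median of all genes as a dashed line. Near the top, the lists of CXC chemokines (0.63 and 4.17), TNF superfamily genes and NF-kB feedback inhibitors have the larger value in set 2, and the lists of CC chemokines (1.02 and 0.55) and interferon response genes (1.27 and 0.14) have it in set 1.

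Some genes were well above background on both arrays of one treatment and on neither of the other, so that only a bound can be given. It compares the brighter treatment's mean with the arrays of the dim one, each taken at the higher of its own signal and the lowest signal well above background on that array. Ecrg4(71-132) was the brighter treatment for 7 such genes and PBS for 271. These counts include any gene whose bound came out at no difference or in the other direction. Lad1, a basement membrane gene, was at least 7.52-fold higher with Ecrg4(71-132) (adjusted p = 0.132), Edn1, which encodes the vasoconstrictor endothelin, at least 3.85-fold (adjusted p = 0.104), Grm4, a glutamate receptor gene, at least 2.91-fold and Sprr2e, a gene of the cornified envelope, at least 2.41-fold. The measured means with PBS and Ecrg4(71-132) were -6.60 and -2.17 for Lad1 and -6.09 and -3.14 for Edn1. Ikzf2, a zinc finger factor of lymphoid cells, was at least 4.09-fold lower. It stood at -3.11 with PBS and -4.33 with Ecrg4(71-132) in set 1, compared with -1.22 and -4.09 in set 2 (adjusted p = 0.140). For Ptpn4 the difference was 0.11 in set 1 and -4.63 in set 2, and for Gm1123 -3.09 and -0.16, so each of these bounds rests on 1 set. The lowest level well above background was itself higher on the Ecrg4(71-132) arrays, at -4.40 and -4.07, than on the PBS arrays, at -5.08 on both. A gene dimmed on the Ecrg4(71-132) arrays thus more easily fell below it, and its part in the count of 271 was not tested.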

How the data were processed

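Each of the 8 samples has the scanner output of 1 one-colour Agilent array, whose columns hold spot intensity values as made by Feature Extraction, version 11.0.1.1 according to the submitters' processing notes, on an array designed on mm9 (per the file headers). The authors also deposited a table of log2 values, which differs from the log2 scanner signal by a constant per array. Its columns have medians of -4.48 to -4.21, and the choice of that constant stays unknown. Here the log2 processed signal was set relative to the 75th percentile of each array. Spots of a probe were averaged without outlying spots, probes were kept where both arrays of 1 treatment or more lay well above background, and the brightest probe stood for a gene. Of 55681 probes, 28026 were named through RefSeq accessions and 27655 kept the name in the files. Genes of near-identical families may share probe signal. No spot was saturated (0 on each array), and all arrays lie on 1 slide with 1 scan.

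The fit (limma 3.58.1, R 4.3.3) used 8 arrays, a mean per treatment and the set as a block, leaving 3 residual degrees of freedom, with Benjamini-Hochberg adjustment. The sets were treated as pairs because the shared numbers come from the titles and the arrays of a set deviated together: the correlation of their deviations was 0.78 to 0.86 in the 6 pairs of treatments. On simulated data for this comparison with 19120 genes, changes of equal size in both sets were put in genes drawn at random. The share recovered was 49 of 67 for log2 changes of 1, 59 of 67 for 2 and 63 of 66 for 4. The fit called 12 other genes. In the measured data the median difference of the 138 higher genes was 1.42 in set 1 and 3.11 in set 2. The simulated shares therefore do not tell how many genes with such unequal differences the test could find. Genes were named as the markers Il1b, Tnf and Il1a, the 20 per direction with the largest smaller within-set difference, the genes with the largest bounds, the members of 37 lists by function over 2-fold different in both sets or brightest in their list, the 5 smallest p per direction, and receptors. Other list members with values were chosen after their values were seen. The members and the lists were chosen with earlier results of these data known. Alternatives covered background correction, scaling, filters, the probe rule, the deposited table, the samples and block in the fit, thresholds and leaving out each array. Promoter sequences come from RefSeq (GRCm38.p6), and array coordinates are those of mm9.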

Additional observations from a re-analysis of the deposited data

How the results depend on the processing

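The number of genes that passed was 0 with normexp, quantile or median scaling, either other filter, the mean of probes, the deposited table, an intensity trend (smallest adjusted p 0.0533), only the 4 arrays compared, or a threshold of 0.10. Leaving out 1 array at a time gave 0 to 1078. Without the replicate block 0 genes passed (smallest adjusted p 0.926), and 933 had an unadjusted p under 0.05. The count over 2-fold higher in both sets, 138, was 209 with median scaling, 360 at 1.5-fold and 52 at 3-fold. The count over 2-fold lower, 85, was 11 with normexp, 44 with median scaling, 31 with genes well above background on all 8 arrays, 163 with no filter, 405 at 1.5-fold and 13 at 3-fold. After seeing the data 2 further settings were added: genes well above background on the 4 arrays gave 31, and values floored at the lowest level well above background gave 46. Both directions lose their count when an array is left out, since that set then has no fold. The median of the interleukin-1 list, 1.20, was 0.63 with the filter on all 8 arrays and with no filter, and that of the homeostatic list, -0.07, was -0.21 with quantile normalization and 0.077 with median scaling. Of 37 list medians, median scaling turned 6 positive, quantile normalization 5 negative and the deposited values turned 2 positive, and normexp changed the sign of 0. With normexp some medians were smaller by over 1.5 times: CXC chemokines went from 2.45 to 1.30, EGF receptor ligands from 2.50 to 1.498, other cytokines from 1.13 to 0.70, plasminogen activation and serpins from 0.84 to 0.53, and metalloproteinases from 0.53 to 0.28. Of 943 values recomputed for 53 named genes 942 kept their direction, and those that passed the test came from fits with 1 array left out. The exception was Ptpn4, at 0.070 without the PBS array of set 2 and -4.58 without that of set 1. A slide block was not run, as there is 1 slide. Beyond what a setting's construction shows, the cause was not tested.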

Other observations

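The genes in this section were chosen after their values were seen. Among genes outside the lists that were over 2-fold higher in both sets, Cd69, an early activation antigen of leukocytes, differed from PBS by 2.90 in set 1 and 5.20 in set 2 (log2). Gpr84, a receptor for medium-chain fatty acids, differed by 1.21 and 3.91, and Icosl, a T-cell costimulator, by 1.01 and 3.73. Met, the receptor of hepatocyte growth factor, differed by 1.25 and 2.46, and Olr1, a receptor for oxidised lipoprotein, by 1.42 and 2.28. Ifnlr1, a subunit of the interferon lambda receptor, was the reverse in its sets, at 3.38 and 1.22. Has1, a hyaluronan synthase, gave 1.87 and 1.93, Pde4b, a phosphodiesterase that breaks down cyclic AMP, 1.03 and 3.14, and Cflar, an inhibitor of caspase activation, 1.14 and 2.89. Among lower genes, Gpr183, a receptor for oxysterols, differed by -1.31 and -1.46, and Lifr, a receptor subunit for leukaemia inhibitory factor, by -1.05 and -1.45.

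Genes without a symbol made up 41 of the 138 higher and 35 of the 85 lower genes, and 11 and 9 of these are known only by an mm9 position. Of the 11 higher ones, 3 lie in one stretch of chromosome 16. The probe named for chr16:84702353-84710928 differed by 2.18 and 4.93, that for chr16:84707202-84707748 by 3.04 and 5.73, and that for chr16:84708695-84708806 by 2.77 and 6.47. The PBS levels of the probe for chr16:84707202-84707748, -7.34 and -6.42, lay below the lowest level well above background on those arrays, -5.08 on both. A pair of the lower ones lie close together on chromosome 15, at chr15:86038874-86039233 (-1.49 and -1.90) and chr15:86041745-86042157 (-1.08 and -1.18). Their genes are not named here.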
